A study of Mus musculus with 7 samples.

Results

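The 4 loci described here are those of Pou5f1, Nanog, Zfp42 and Esrrb, genes used as markers of mouse embryonic stem cells, and the measurement is ATAC-seq, in which the Tn5 transposase inserts sequencing adapters into accessible DNA. Members were all peaks touching a window of mouse build mm9 around each gene. The windows were chr17:35630000-35655000 for Pou5f1 (25 kb), chr6:122600000-122680000 for Nanog (80 kb), chr8:44360000-44410000 for Zfp42 (50 kb) and chr12:87650000-87900000 for Esrrb (250 kb). Together they held 278 of the 644207 peaks listed for 7 samples.

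Female lines from a 129S1 x Cast:EiJ F1 cross made up 3 of the samples, so that reads could be given to either parental allele. These were wild-type embryonic stem cells (mESC, line F1216, grown in serum with mLIF), wild-type neural progenitor cells (NPC, line C2, grown with FGF and EGF) and NPC with the deltaFT deletion (line sgdgb2, same medium). The deltaFT deletion is known to remove a boundary region of the X chromosome. The other 4 samples were male J1 embryonic stem cells, called TXY, in which Xist on the X can be induced with doxycycline (dox). TXY WT carried the intact inducible Xist and TXY deltaRepA an inducible Xist without its A repeat, and each was profiled untreated (no dox) or after 2 ug/mL dox for 48 hours. The untreated samples carry the inducible construct too. Each group was 1 sample of 1 line, so no test between groups was made and no p-value is given. For the mESC sample the source label names neural progenitors, against its title and medium, and it was grouped by its title.

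Pou5f1 (Oct4, a POU-domain transcription factor) and Nanog (a homeodomain factor) are core regulators that keep embryonic stem cells self-renewing, and both bind at many enhancers together with Sox2. Esrrb, an orphan nuclear receptor, belongs to the same network and supports self-renewal, and Zfp42 (Rex1, a zinc-finger protein) is a widely used marker of the naive stem cell state. Expression of all of them is known to be shut down when stem cells become neural progenitors.

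RefSeq lists 1 promoter for Zfp42 and 2 for each of the others, and the one at the annotated start of the gene is shown. Marked in it are short motifs that POU, SOX, ERR and KLF factors are known to bind. Pou5f1 is a POU factor and Esrrb an ERR factor, and motifs of the Nanog and Zfp42 proteins were not searched. Sequences are those of RefSeq (build GRCm38.p6), 250 bases before to 50 after the annotated start, 5′ to 3′ on the strand of the gene. These coordinates are of another build than the peaks and cannot be set beside them. Capitals mark matches, on either strand, to the octamer ATGCAAA, the SOX core CATTGT, the ERR half-site AAGGTCA, the KLF core CACCC and the TATA box TATAAA.
Pou5f1 promoter: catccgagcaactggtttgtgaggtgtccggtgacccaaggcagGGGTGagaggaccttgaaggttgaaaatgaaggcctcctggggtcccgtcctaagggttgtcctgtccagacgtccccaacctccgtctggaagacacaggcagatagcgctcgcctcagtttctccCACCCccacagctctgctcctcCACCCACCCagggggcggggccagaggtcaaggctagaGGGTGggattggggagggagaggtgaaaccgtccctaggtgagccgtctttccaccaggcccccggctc
Nanog promoter: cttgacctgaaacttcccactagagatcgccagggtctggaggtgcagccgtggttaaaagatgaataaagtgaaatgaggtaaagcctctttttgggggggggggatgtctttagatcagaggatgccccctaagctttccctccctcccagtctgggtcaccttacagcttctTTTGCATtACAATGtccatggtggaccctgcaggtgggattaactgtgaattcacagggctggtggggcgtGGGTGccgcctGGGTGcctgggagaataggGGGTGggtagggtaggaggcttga
Zfp42 promoter: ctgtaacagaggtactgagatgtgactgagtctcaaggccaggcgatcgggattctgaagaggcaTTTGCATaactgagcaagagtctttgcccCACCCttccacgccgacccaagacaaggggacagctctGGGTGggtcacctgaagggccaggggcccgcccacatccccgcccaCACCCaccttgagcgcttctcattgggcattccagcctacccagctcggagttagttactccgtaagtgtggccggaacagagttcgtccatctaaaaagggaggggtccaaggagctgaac
Esrrb promoter: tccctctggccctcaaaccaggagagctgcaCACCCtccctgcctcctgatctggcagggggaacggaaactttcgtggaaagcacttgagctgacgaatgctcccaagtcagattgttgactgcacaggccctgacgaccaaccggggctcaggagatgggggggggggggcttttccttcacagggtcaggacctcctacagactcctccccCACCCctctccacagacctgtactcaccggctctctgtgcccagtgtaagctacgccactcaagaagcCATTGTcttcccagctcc

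The Nanog promoter (chr6:122707239-122707538, plus strand) held an octamer at bases 176 to 182 and a SOX core at bases 184 to 189, counted from its first printed base and both on the reverse strand. Of 32851 mouse promoters of this length, 4.63% held the octamer, 12.6% the SOX core and 0.149% (49 promoters) both with starts within 12 bases. The Zfp42 promoter (chr8:43306960-43307259, minus strand) held an octamer at bases 66 to 72 and no SOX core. The Pou5f1 promoter (chr17:35505782-35506081, plus strand) held 5 KLF cores, a pair of which overlap by a base, and neither an octamer nor a SOX core. The Esrrb promoter (chr12:86360867-86361166, plus strand) held a SOX core at bases 283 to 288, past the start. KLF cores were in all 4 shown (3 in Nanog, 3 in Zfp42, 2 in Esrrb) and in 57.5% of all promoters. Of the promoters not shown, that of Pou5f1 held a SOX core and that of Esrrb none. None of the 4 shown held the ERR half-site (4.72% of all promoters) or the TATA box (13.6%). A match is a run of letters and not a shown binding site. In gene order of the same RefSeq annotation, Pou5f1 lies between H2-Q10 and Tcf19, Nanog between Dppa3 and Slc2a3, Zfp42 between Triml2 and Adam26b, and Esrrb between Gpatch2l and Vash1. No gene models of build mm9 were used, so no peak below is assigned to a promoter, exon, intron or UTR.

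For each female line the deposited list holds peaks reproducible between 2 libraries (the IDR list, with an irreproducible discovery rate under 0.05), with a read count per peak. The autosomal peaks of these lists held 27538 peaks in mESC, 39692 in wild-type NPC and 36036 in deltaFT NPC, with medians of 152, 169 and 191 reads. For TXY cells there was 1 list per condition from merged libraries, of 123996 to 140048 autosomal peaks, with no read counts and no replicate check. The lists differ in length and depth, so each count below stands beside the same count over the autosomes of its own list.

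Each window held more peaks in every stem cell list than in either NPC list. The mESC list held 35 member peaks of 28907, wild-type NPC 6 of 41126 and deltaFT NPC 7 of 37270. TXY WT held 58 of 139825 without dox and 47 of 125498 with dox. TXY deltaRepA held 63 of 129055 and 62 of 142526. Per 10000 autosomal peaks of each list this was 12.7 in mESC, 1.51 and 1.94 in the NPC lines, and 3.79 to 4.98 in TXY cells. Scaled in this way the Nanog window had 0.948 to 1.21 in TXY cells, around the 1.01 of wild-type NPC. The Pou5f1 window had 0.286 to 0.474 in TXY cells, the lowest of these close to the 0.278 of deltaFT NPC. The library lists gave the same order without overlap, with 56 and 58 member peaks in the mESC libraries against 13 and 12 in wild-type NPC and 17 and 14 in deltaFT NPC. In bulk cells, fewer cells with an open site and a less open site in every cell cannot be told apart.

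**Figure D1:**
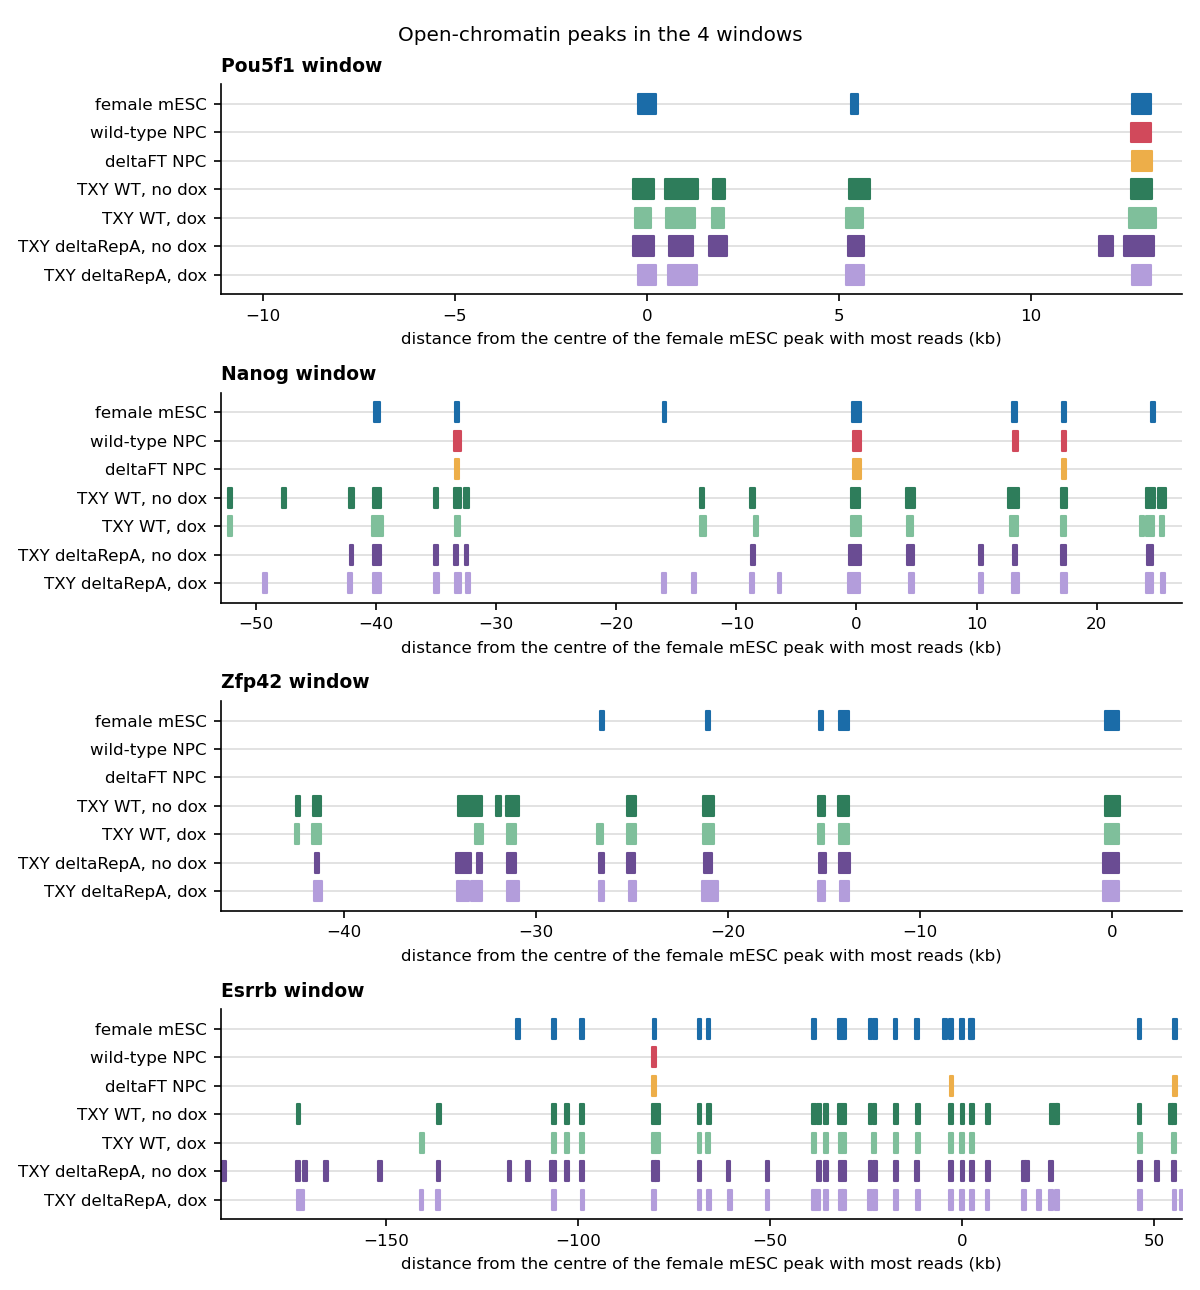
Peaks of each list in the 4 windows, placed by distance in kb from the centre of the mESC peak with most reads, 1 row per sample. Positions are to scale, but narrow peaks are drawn at a minimum width set by the window length. The mESC and TXY rows hold peaks in every window, and the NPC rows hold 1 Pou5f1 peak each, 4 and 3 Nanog peaks, no Zfp42 peak, and 1 and 3 Esrrb peaks.

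At Pou5f1, mESC had 3 peaks and each NPC line 1. The number of peaks was 5 and 5 in TXY WT without and with dox, and 6 and 4 in TXY deltaRepA. Among autosomal tiles of 25 kb, 1.52% held at least as many peaks as the window in mESC, against 27.7% in wild-type NPC and 25.1% in deltaFT NPC, so that a single peak in the NPC lines was an ordinary count for such a stretch. In the TXY lists the shares were 3.96% and 2.25% for WT, and 0.713% and 8.36% for deltaRepA, without and with dox. The mESC peaks were chr17:35640836-35641310 with 330 reads, chr17:35646374-35646572 with 105 and chr17:35653693-35654183 with 326. The first 2 overlapped no peak in any of the 6 NPC lists. The one nearest the window's end was listed in all 3 lines, with 468 reads in wild-type NPC and 350 in deltaFT NPC. All 3 were listed in all 4 TXY lists.

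At Nanog, mESC had 7 peaks, wild-type NPC 4 and deltaFT NPC 3, the most of the 4 loci in wild-type NPC. TXY WT had 15 and 12 peaks without and with dox, and TXY deltaRepA 12 and 17. Tiles of 80 kb with at least as many peaks made up 0.663% in mESC, 10.3% in wild-type NPC and 17% in deltaFT NPC, and 1.15%, 1.99%, 2.01% and 0.136% in the TXY lists in the order just given. The strongest mESC peak, chr6:122652530-122653255, had 608 reads (percentile 95.7 of autosomal mESC peaks) and was listed in all 7 samples. Next were chr6:122612751-122613232 with 241 reads, which was in no NPC list, and chr6:122665848-122666243 with 170. The other 4 had 39 to 165 reads.

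At Zfp42, mESC had 5 peaks and neither NPC line had any, in the IDR lists or in any of their 4 library lists. All 4 TXY lists had 10 each. Tiles of 50 kb with at least as many peaks made up 0.813% in mESC and 1.44%, 0.572%, 0.51% and 0.746% in TXY WT without and with dox and deltaRepA without and with dox. An empty stretch is common, since 56.4% of such tiles in wild-type NPC and 60.3% in deltaFT NPC held no peak. The strongest mESC peaks were chr8:44406017-44406719 with 588 reads and chr8:44392157-44392652 with 561, at percentiles 95.2 and 94.6. The third was chr8:44391099-44391328 with 154 reads, and the others had 116 and 88.

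At Esrrb, mESC had 20 peaks over 171 kb, wild-type NPC 1 and deltaFT NPC 3. TXY WT had 28 and 20 without and with dox, and TXY deltaRepA 35 and 31. Of autosomal tiles of 250 kb, 0.152% (15 of 9897) held at least as many peaks in mESC, where the median tile held 2. The shares were 79.1% in wild-type NPC, 50.7% in deltaFT NPC, 9% and 17.6% in TXY WT, and 0.626% and 2.64% in TXY deltaRepA. The surroundings of Esrrb were also rich in mESC peaks. Within 10 Mb on either side lay 477, against 362 around Pou5f1, 334 around Nanog and 170 around Zfp42. Whether the window stands apart from its own surroundings in peak number was not tested. The strongest mESC peak, chr12:87842513-87843157, had 1205 reads (percentile 99.5) and was in all TXY lists and no NPC list. Next were chr12:87839771-87840184 with 502 reads and chr12:87811915-87812338 with 482. The range over the 20 peaks was 66 to 1205 reads with a median of 244, and 17 of the 20 lay above the autosomal median of 152.

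**Figure D2:**
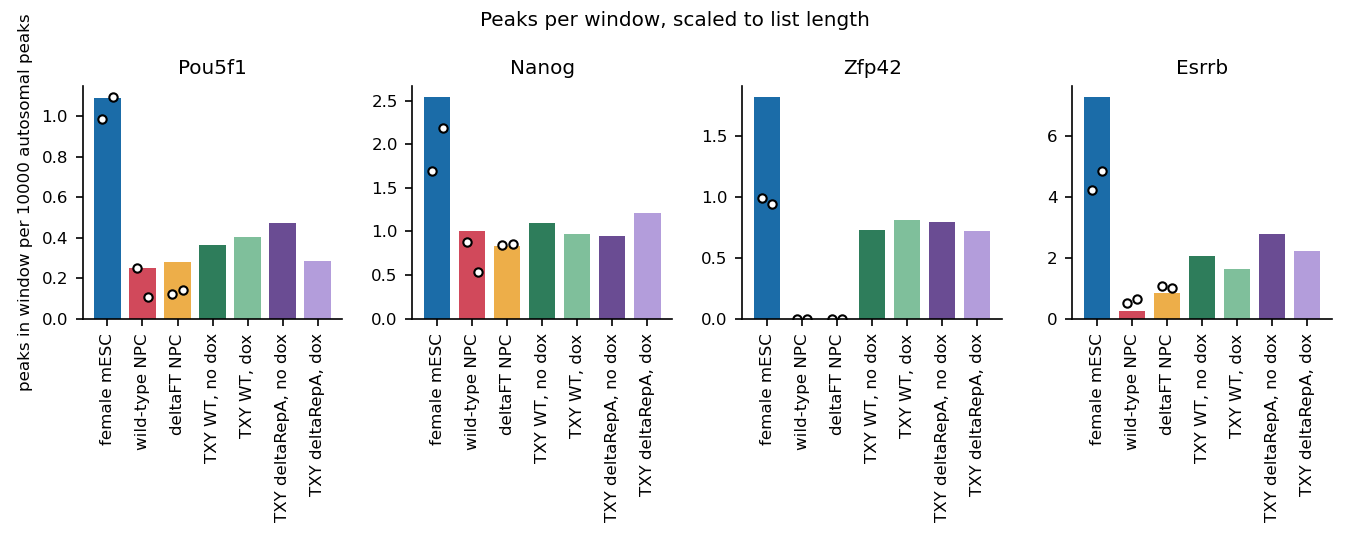
Bars give the peaks in each window per 10000 autosomal peaks of the same list, on a separate linear axis from 0 for each gene, and open circles give the 2 libraries of each female line. The mESC bar is the highest in every window (1.09 for Pou5f1, 2.54 for Nanog, 1.82 for Zfp42 and 7.26 for Esrrb), and for Zfp42 both NPC lines stand at 0.

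Reads gave the same order. Reads in IDR peaks of a window were scaled to 1000000 reads in all autosomal IDR peaks of the line (RPM), with exact Poisson 95% intervals that cover counting error alone. At Pou5f1 this gave mESC 123 RPM (115 to 132), wild-type NPC 43.6 (39.8 to 47.8) and deltaFT NPC 32.3 (29.0 to 35.8). At Nanog it gave, in the same order, 235 (223 to 247), 76.5 (71.3 to 81.9) and 67.4 (62.6 to 72.5). At Zfp42 mESC had 244 (232 to 257) and the NPC lists no peak to read. Esrrb had 1018 (993 to 1043), 15.7 (13.4 to 18.2) and 58.2 (53.7 to 62.9). At Pou5f1, Nanog and Esrrb the mESC interval lay above those of both NPC lines. These sums move with how much was called: the covered length was 13518 bp in mESC, 2869 in wild-type NPC and 3453 in deltaFT NPC. Per kb of peak, the windows had 120, 47.3 and 45.7 RPM, beside 85.4, 57.0 and 57.2 over all autosomal peaks. The windows differed in this: in mESC, Pou5f1 had 106 per kb, Nanog 90.1, Zfp42 133 and Esrrb 129. The Pou5f1 peak had 81.9 in wild-type NPC and 63.2 in deltaFT NPC, and Nanog had 39.9 and 58.4, while Esrrb had 37.3 and 32.6.

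The comparison of mESC with NPC addresses the sites that are open in one cell type and not in the other. Of the 35 mESC member peaks, 25 overlapped no peak in any list of wild-type NPC (71.4%, exact Clopper-Pearson 95% interval 53.7 to 85.4), beside 41.1% over all autosomal mESC peaks. They were 2 of 3 at Pou5f1, 3 of 7 at Nanog, 5 of 5 at Zfp42 and 15 of 20 at Esrrb. For deltaFT NPC the count was 24 of 35 (68.6%, 50.7 to 83.1) beside 40.1%, and against all 6 NPC lists together it was also 24 of 35, beside 36.9%. Nanog, with 42.9%, stood near the autosomal share, while the intervals at Pou5f1 and Nanog were too wide to set them apart from it. Peaks of 1 window share a locus and are not replicates.

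In the other direction, 6 of the 35 mESC peaks were found in the wild-type NPC IDR list (46.3% over the autosomes) and 7 of 35 in that of deltaFT (48.1%). Every NPC member peak was also a mESC peak: 6 of 6 in wild-type NPC, beside 31.7% over its autosomes, and 7 of 7 in deltaFT NPC, beside 36.2%. With so few peaks the lower limits of these shares were 54.1% and 59.0%. Neither line therefore had an IDR peak in these windows that mESC lacked. Of the 6 wild-type NPC peaks 5 were also listed in deltaFT NPC (83.3%, 35.9 to 99.6), a share not apart from the 66% over the autosomes.

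Chromosome 12, which holds Esrrb, differed from the chromosomes of the other windows. Within 10 Mb on either side, outside the windows, 56.6% of mESC peaks were in no wild-type NPC list at Esrrb, against 35.6% at Pou5f1, 37.7% at Nanog and 45.9% at Zfp42. In deltaFT NPC these shares were 53.0%, 36.5%, 36.8% and 47.1%. Over the whole of chromosome 12 outside the window it was 52.3% for wild-type NPC and 50.1% for deltaFT NPC, so the flanks were near the chromosome as a whole. Matched peaks of the Esrrb flanks also had fewer reads in NPC, by a median log2 of -1.40 for the 131 matched in wild type and -1.25 for the 148 matched in deltaFT, beside -0.23 and -0.07 over all autosomes. At Esrrb 15 of 20 mESC peaks were in no wild-type NPC list, with an interval (50.9 to 91.3) that held the 56.6% of its flanks. For deltaFT NPC the interval for 14 of 20 (45.7 to 88.1) held the 53.0%. Esrrb alone holds 20 of the 35 mESC peaks, and the part of its surroundings in its counts was not tested. Without Esrrb, 10 of 15 peaks (66.7%) were absent from each NPC line. Of these 15, 13 (86.7%) were in all TXY lists, beside 89.9% over the autosomes. The comparison without Esrrb was added after the flanks were seen. No interval was computed for the 10 of 15, so an excess over the autosomal 41.1% and 40.1% without Esrrb was not tested.

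Every site shared between mESC and NPC had a lower RPM in NPC. They were 6 of 6 in wild-type NPC, beside 60.9% of matched autosomal peaks, and 7 of 7 in deltaFT NPC, beside 54.0%. RPM values were compared peak by peak, as the ratio of NPC to mESC with a 95% interval for counting error. This interval held 1, no difference, for a Nanog site in wild-type NPC (0.693 to 1.04) and an Esrrb site in deltaFT NPC (0.779 to 1.12). Of the 6 sites shared with wild-type NPC, 3 had at most 0.5 times the mESC value, beside 19.4% of 12739 matched autosomal peaks. Of the 7 shared with deltaFT NPC, 4 did, beside 13% of 13258. Esrrb gave 1 of the 3 and 2 of the 4, and Nanog the others. Around Esrrb such drops were common. In its flanks 74.8% of 131 matched peaks in wild-type NPC and 64.9% of 148 in deltaFT NPC were as low. There 93.9% and 92.6% were lower in NPC at all, so the Esrrb sites did not stand apart from their surroundings.

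The Pou5f1 site at chr17:35653693-35654183 had 52.8 RPM in mESC, 43.6 in wild-type NPC and 32.3 in deltaFT NPC. Its ratios were 0.827 (0.716 to 0.955) and 0.611 (0.524 to 0.713). It was thus lower in both, but near the autosomal middle in wild-type NPC, where 48.1% of matched peaks had a ratio as low.

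Among the Nanog sites, the strongest, chr6:122652530-122653255, had RPM values of 98.4, 36.1 and 45.1 in mESC, wild-type NPC and deltaFT NPC, with ratios of 0.367 (0.322 to 0.417) and 0.458 (0.406 to 0.517). The site chr6:122619456-122619740 had 26.7, 22.7 and 16.3, with a wild-type ratio of 0.848 (0.693 to 1.04). Its called peak was 285 bp in mESC and 560 bp in wild-type NPC, and per bp the log2 difference was -1.21. The site chr6:122670081-122670308 had 15.2, 10.9 and 5.99. The last had the fewest reads of the 3, 94, 117 and 65 in the same order. The site chr6:122665848-122666243 had 27.5 in mESC and 6.81 in wild-type NPC, a ratio of 0.247 (0.185 to 0.327), and was in both library lists of deltaFT NPC but not in its IDR list.

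At Esrrb the site chr12:87762427-87762983 was shared by all 3 lines, with 32.4 RPM in mESC, 15.7 in wild-type NPC and 30.2 in deltaFT NPC. Its ratios were 0.484 (0.392 to 0.597) for wild type and 0.931 (0.779 to 1.12) for deltaFT. The called peak was 557 bp long in mESC, 420 in wild-type NPC and 818 in deltaFT NPC, and per bp the log2 differences from mESC were alike, -0.64 and -0.66. A pair of other sites was listed for deltaFT NPC alone among the NPC IDR lists. At chr12:87839771-87840184 mESC had 81.3 and deltaFT NPC 16.4, a ratio of 0.202 (0.169 to 0.240), and the site was in both wild-type NPC library lists. At chr12:87897843-87898317 the values were 33.2 and 11.6, a ratio of 0.350 (0.278 to 0.439), with the site in library 2 of wild-type NPC.

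**Figure D3:**
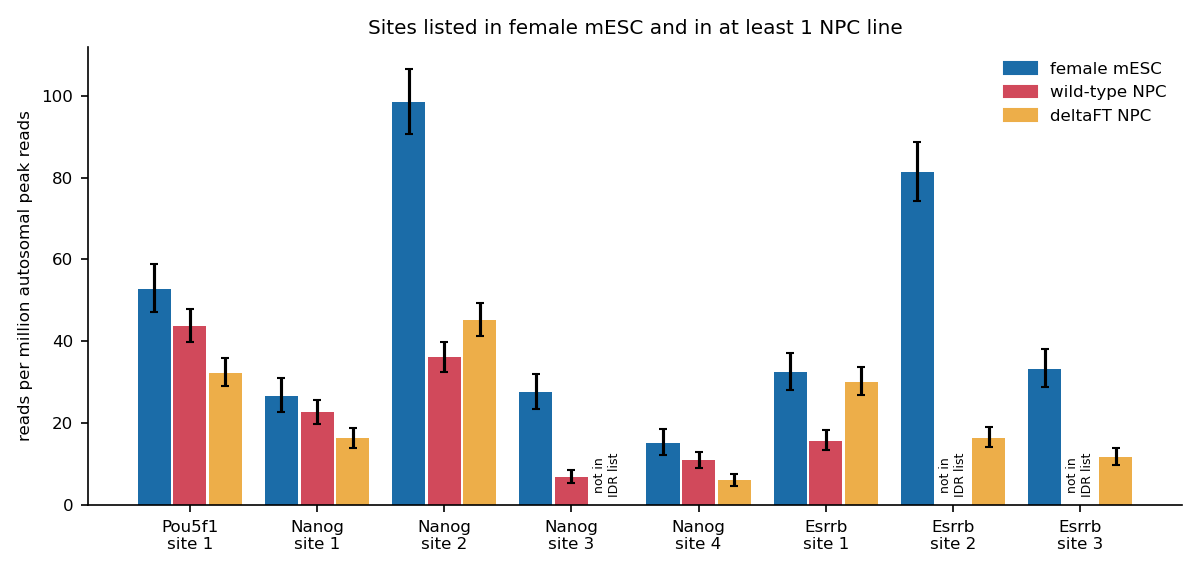
RPM at the 8 sites listed in mESC and in at least 1 NPC IDR list, numbered by position within each gene, with exact Poisson 95% intervals on a linear axis from 0. Every NPC bar is lower than its mESC bar, and Nanog site 2 (98.4 in mESC) and Esrrb site 2 (81.3) stand out in mESC.

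Reads that could be given to a parental allele were near equal in mESC at Pou5f1, Nanog and Zfp42, with a slight excess of the first-listed allele at Nanog, and strongly skewed at Esrrb. Peaks with at least 10 allelic reads were used. No strain is named for the allele columns, which are told apart here by their order, first-listed or second-listed. In mESC the first-listed allele held 47.4% (42.7 to 52.2) of the allelic reads at Pou5f1, 53.5% (50.1 to 56.9) at Nanog and 50.4% (46.9 to 54.0) at Zfp42, beside 47.9% over all autosomes. At Esrrb it held 21.3% (19.99 to 22.8), from 733 first-listed and 2701 second-listed reads.

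All 20 Esrrb peaks lay on the same side, between 5.70% and 39.5%. In 18 of the 20 the interval lay below 50%, beside 16.9% of 23243 autosomal mESC peaks. The other 2, with 19 and 38 allelic reads, had 31.6% (12.6 to 56.6) and 39.5% (24.0 to 56.6). The strongest peak, chr12:87842513-87843157, had 202 first-listed and 625 second-listed reads, or 24.4% (21.5 to 27.5). The skew was shared by the surroundings. Within 10 Mb of the window the first-listed allele held 23.9% (23.6 to 24.3), with 88.4% of 415 peaks below 50%, and over the rest of chromosome 12 it held 30.6%. Of the peaks in the other windows 1 in mESC stood apart from 50%, chr6:122612751-122613232 at Nanog with 60.6% (53.0 to 67.7), beside 11.4% of autosomal peaks above 50%.

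The NPC lines did not share the skew on chromosome 12. Within 10 Mb of the Esrrb window the first-listed allele held 48.4% in wild-type NPC and 51.7% in deltaFT NPC. The 3 Esrrb peaks of deltaFT NPC together had 56.6% (50.2 to 62.9), and 1 of them, chr12:87897850-87898297, lay above 50% with 65.8% (56.5 to 74.3), beside 12.8% of autosomal peaks, while none of the deltaFT member peaks lay below (17.6% of autosomal peaks). The overlapping mESC peak had 20.1% (14.5 to 26.7). The single Esrrb peak of wild-type NPC had 8 and 1 allelic reads, too few for use. At Pou5f1 the shared site had 40.5% (34.9 to 46.2) in wild-type NPC, below 50% as were 15% of autosomal peaks, and 47.4% (40.6 to 54.3) in deltaFT NPC. At Nanog 2 of 4 wild-type NPC peaks lay above 50% (17.3% of autosomal peaks). They were chr6:122652561-122653271 with 56.4% (50.4 to 62.1) and chr6:122665902-122666305 with 71.9% (53.3 to 86.3) on 32 reads. Pooled over Nanog, wild-type NPC had 54.4% (49.8 to 59.0) and deltaFT NPC 53.1% (48.7 to 57.4).

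**Figure D4:**
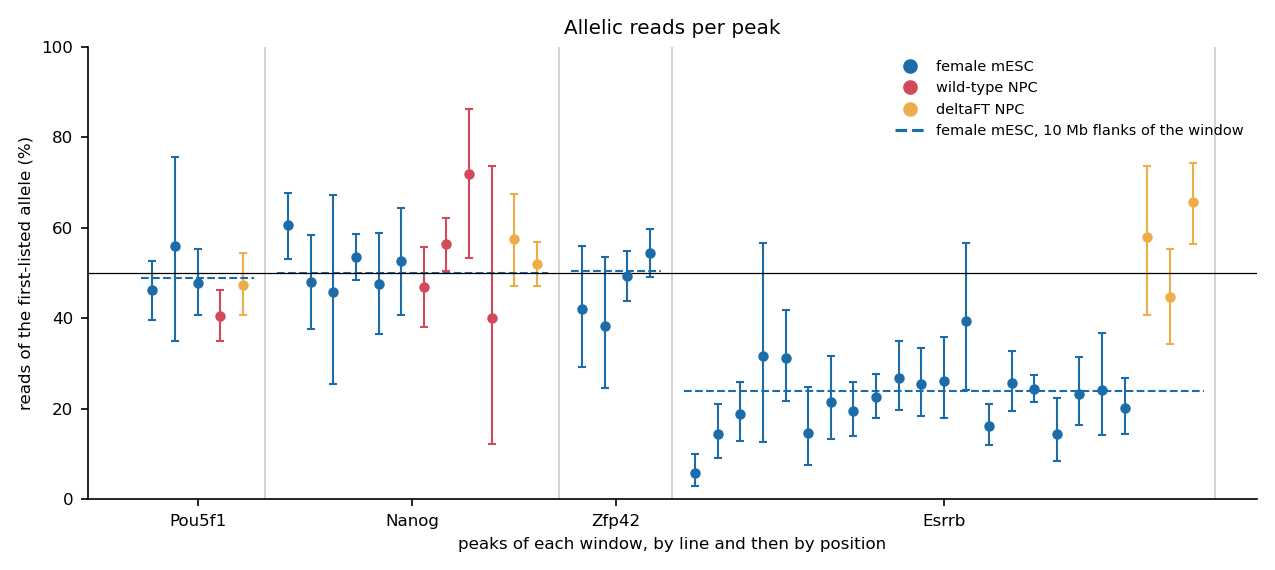
Share of allelic reads from the first-listed allele at each member peak with at least 10 allelic reads, with exact 95% intervals, peaks ordered by line and then position within each window. The line at 50% marks equal alleles and dashes mark the mESC value within 10 Mb of the window, and the 20 mESC Esrrb peaks (5.70% to 39.5%) lie around their dashes at 23.9% while the deltaFT NPC peaks there lie at 44.7% to 65.8%.

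Of the 35 mESC peaks, 27 were in all 4 TXY lists (77.1%, 59.9 to 89.6), beside 89.9% over the autosomes, and 33 in at least 1, beside 98.7%. They were in all 4 lists for 3 of 3 peaks at Pou5f1, 6 of 7 at Nanog, 4 of 5 at Zfp42 and 14 of 20 at Esrrb. Counting only TXY peaks with a −log10 q of at least 5, 16 of 35 (45.7%) were in all 4 lists, beside 70.5% over the autosomes. The share at Esrrb, 70.0% (45.7 to 88.1), stood near the 75.5% of its 10 Mb flanks. The 2 peaks in no TXY list were both at Esrrb, chr12:87726839-87727444 and chr12:87838053-87838415. Each had 422 mESC reads, with 11 first-listed and 182 second-listed allelic reads in the first (5.70%, 2.88 to 9.97) and 44 and 230 in the second (16.1%, 11.9 to 21.0). The first had the lowest first-allele share of all member peaks with at least 10 allelic reads.

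In the TXY lists the deposited fold enrichment and −log10 p were used only to order peaks within a list. At Zfp42 the strongest regions were chr8:44392119-44392724 and chr8:44405883-44406751, each above percentile 98 of its list in all 4 conditions. Their percentiles were 99.0 and 98.6 in TXY WT without dox and 99.4 and 99.6 with dox, and 98.6 and 98.5 in deltaRepA without dox and 98.8 and 98.9 with dox. Both overlapped the strongest mESC peaks of the window and no NPC peak.

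At Nanog the region chr6:122652209-122653242 lay at percentile 98.8 in TXY WT without dox, 95.9 with dox, 98.6 in deltaRepA without dox and 98.8 with dox. The next, chr6:122665481-122666402, lay at 92.5, 91.0, 82.2 and 82.1 in the same order. Both overlapped mESC peaks, and the first was also the strongest Nanog site of mESC.

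At Pou5f1 the region chr17:35653485-35654325, the site shared with NPC, lay at 96.6, 95.8, 92.4 and 97.3. The second, chr17:35641548-35642406, lay at 91.3, 81.0, 87.4 and 84.8. It was in both mESC library lists but not in the mESC IDR list, and in no NPC list. At Esrrb the region chr12:87774159-87774704 lay at 93.3, 90.2, 88.7 and 93.7, and chr12:87842464-87843245, which overlaps the strongest mESC peak, at 91.3, 89.3, 97.1 and 96.6. These leading regions were chosen by their −log10 p in TXY WT without dox, so their high place in that list was fixed by the choice. None was missing from any other TXY list. Over the autosomes, 92.6% of TXY WT no-dox peaks with a −log10 q of at least 5 were found with dox.

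Joined over the 4 lists, the TXY peaks made 84 regions, of which 35 were in all 4 lists, 15 in 3, 9 in 2 and 25 in 1. By locus, 4 of 6 regions at Pou5f1, 8 of 21 at Nanog, 8 of 11 at Zfp42 and 15 of 46 at Esrrb were in all 4. Joined in the same way over all autosomes, 25.8% of 239689 regions were in all 4 lists and 46.4% in 1. Of the 35 member regions in all 4 lists 31 were also in a mESC list, beside 74.4% over the autosomes, and of the 25 in 1 list 3 were, beside 4.34%. The 4 regions in all TXY lists but in no mESC list were chr6:122644049-122644661 at Nanog and 3 at Zfp42, chr8:44364718-44365221, chr8:44372222-44373618 and chr8:44374822-44375508. These 4 are singled out after their values were seen. Of the 58 TXY WT peaks without dox, 42 were in a mESC list (42.4% over the autosomes), 15 in an NPC list (32%) and 35 in the other 3 TXY lists (45%).

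**Figure D5:**
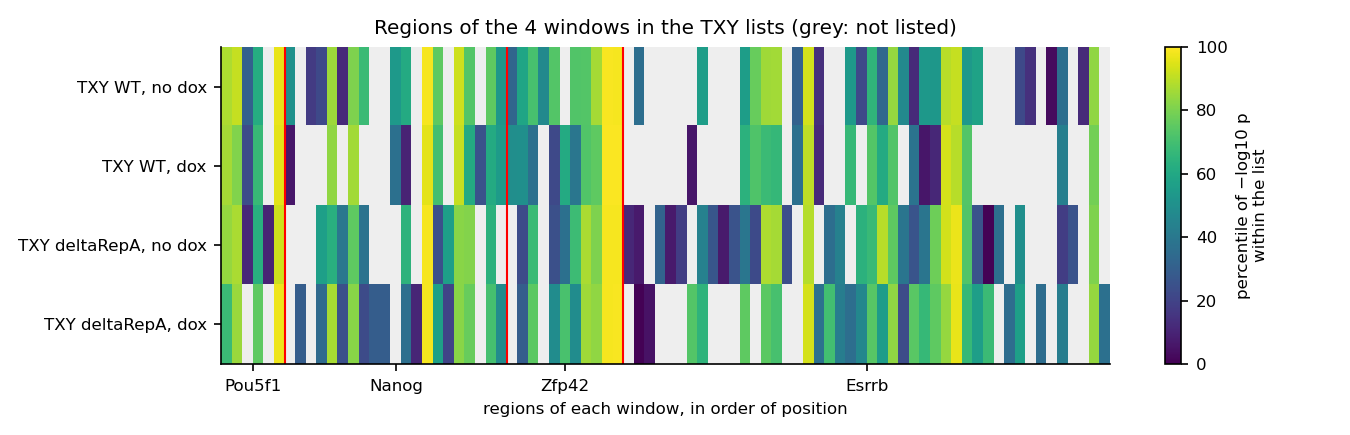
Each column is 1 of the 84 joined TXY regions, in order of position within each window (red lines part the windows), each row 1 list, and colour gives the percentile of −log10 p within that list, with grey where no peak was listed. Columns filled in all 4 rows include the 2 leading Zfp42 regions above percentile 98, and most grey lies in the Esrrb window, where 17 of 46 regions were in 1 list.

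Xist is known for its action on the X chromosome, and the 4 loci are autosomal. The lists with and without dox were compared by the share of peaks found in both, and an effect of dox and the difference between 2 lists of 1 line cannot be told apart. In TXY WT, 44 of 58 peaks without dox were found with dox (75.9%, 62.8 to 86.1), beside 62.1% over the autosomes. They were 5 of 5 at Pou5f1, 11 of 15 at Nanog, 9 of 10 at Zfp42 and 19 of 28 at Esrrb. In the other direction 44 of 47 were found without dox, beside 69.4%. In TXY deltaRepA, 50 of 63 were found with dox (79.4%, 67.3 to 88.5), beside 68.7%, and 50 of 62 plus-dox peaks were found without dox, beside 62.8%. Its peaks found with dox were 4 of 6 at Pou5f1, 12 of 12 at Nanog, 10 of 10 at Zfp42 and 24 of 35 at Esrrb.

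Among peaks with a −log10 q of at least 5 the members did as the autosomes did. In TXY WT 29 of 31 were found with dox (92.6% over the autosomes), and in deltaRepA 25 of 25 (97.5%). The 2 TXY WT peaks of this strength without a partner with dox lay in chr6:122620181-122620674 at Nanog (−log10 q 7.23) and chr12:87849131-87849703 at Esrrb (−log10 q 5.06). Both regions were in both deltaRepA lists. Between the genotypes without dox, 46 of 58 TXY WT peaks were in the deltaRepA list, beside 60.4% over the autosomes. Of the 84 regions, 10 were in TXY WT lists alone, beside 27% of autosomal regions, and 23 in deltaRepA lists alone, beside 27.8%, of which 17 were at Esrrb. With dox alone 10 were found, beside 25.8%, and without dox alone 16, beside 24.7%. Each condition was 1 merged list, so none of these differences has a replicate check.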

How the data were processed

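ATAC-seq peak lists of 7 samples were used as deposited. The submitters' processing notes name cutadapt, Bowtie2, MACS2 and build mm9. Not given in the sources used here are versions, settings, duplicate handling, any Tn5 shift and the allele assignment. The authors deposited raw read counts per peak, in all and per allele, in the IDR lists, and whether a count covers 1 or both libraries is not given. The fold enrichment (a ratio), −log10 p, −log10 q and peak score deposited for single libraries and TXY conditions are the authors' values. They were used only within a list, apart from a −log10 q of at least 5 applied alike to the TXY lists. Without dox, 58279 autosomal peaks of TXY WT and 44964 of deltaRepA passed it, so counts at this threshold also differ by list.

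Peaks overlapping by at least 1 bp counted as shared (bedtools 2.31.1). Tables were made in python 3.11.15 (pandas 2.3.3, scipy 1.17.1, numpy 2.4.6) and figures with matplotlib 3.10.9. Autosomal tiles of each window's length, and all autosomal peaks, served as background. Intervals cover counting error only, as PCR copies cannot be told from separate molecules, and only called peaks are listed, so an empty window gives no read floor. Overlap calls, read ratios of matched peaks and the coverage of allele intervals were tested on simulated data. The windows and choices were made with earlier results of these data known. Named peaks were the 3 mESC peaks with most reads per window, those shared with an NPC IDR list, the 2 TXY WT no-dox peaks with highest −log10 p per window, and those with −log10 q of at least 5 not found with dox. Other pluripotency genes and cell type markers were not placed, because gene models of mm9 were not used here. Both plus-dox samples are described with the name of a no-dox file, and were grouped by title.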

Additional observations from a re-analysis of the deposited data

Results flagged for a closer look

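In the Nanog window the number of TXY peaks with dox minus that without was -3 in TXY WT and 5 in TXY deltaRepA. The genotypes moved in opposite directions, each being 1 list per condition, and the difference was not tested. The lists themselves moved the same way, with autosomal peaks changing by -9.76% in TXY WT and by 10.7% in deltaRepA, and relative to these the Nanog ratios were 0.887 and 1.28.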

How the results depend on the processing

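Of 62 alternatives for the main values, 52 stayed within their spread. With −log10 q of at least 5, the TXY windows held 31 and 24 peaks in WT and 25 and 30 in deltaRepA, without and with dox. At that threshold 93.5% of TXY WT no-dox peaks were found with dox, beside 92.6% over the autosomes, and 100% of deltaRepA, beside 97.5%. In all 4 TXY lists were 45.7% of mESC peaks, beside 70.5% over the autosomes. The median over peaks put the first-listed allele in mESC at 45.7% for Zfp42 and 22.9% for Esrrb, each beyond the interval of the pooled share. With reads of all chromosomes as denominator, Esrrb in mESC had 969 RPM. This larger denominator lowers every mESC window by the same factor. The cause of the other moves was not tested. Leaving out 1 library at a time, 71.4% to 77.1% of mESC peaks were absent from wild-type NPC and 68.6% to 71.4% from deltaFT NPC. Autosomal shares were not computed with a library left out. The values without Esrrb were chosen after seeing the data. Depth limits weak peaks: the least mESC member peak had 39 reads, and absence from a list does not show a closed site. No paired analysis was possible because each group is 1 sample and no replicate numbers are shared between groups.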

Other observations

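The 2 Esrrb peaks of mESC that no TXY list holds were unusual among such peaks in their strength. Of 359 autosomal mESC peaks in no TXY list, 5 (1.39%) had at least 400 reads, beside 13.6% of the 24756 peaks in all 4 lists. That limit was chosen after the values were seen. Peaks in no TXY list had a median first-allele share of 31.9%, beside 49.3% for those in all 4, and 16.7% of them had under 10% first-allele reads, beside 0.408%. The Esrrb peaks had 5.70% and 16.1%. Within 10 Mb of Esrrb, where the whole region is skewed, the medians were 15.4% for the 19 peaks in no TXY list and 24.6% for the 312 in all 4.

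Below the IDR threshold, the Nanog window held 1 site that was listed in all 4 NPC libraries and in no mESC or TXY list. It lay at chr6:122609706-122609875 in library 1 of wild-type NPC and is named after its values were seen. Its −log10 p was 17.1 and 5.86 in the wild-type libraries and 5.61 and 4.49 in the deltaFT libraries, and it was in neither NPC IDR list.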
